A study of Mus musculus with 2 samples.

Results

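The peaks described here are the anti-FLAG chromatin immunoprecipitation sequencing (ChIP-seq) peaks of FLAG-tagged HLF that lie deep inside long genes. A peak was counted when its centre lay in the body of a protein-coding gene on chromosomes 1 to 19 and more than 20 kb from the nearest protein-coding gene end. This gave 699 deep peaks out of 3153, or 22.2% (exact Clopper-Pearson 95% interval 20.7 to 23.7%). They made up 40.4% of the 1731 autosomal peaks in protein-coding gene bodies. Every peak is 400 bp wide, and the 25 peaks on chromosome X were outside the rule.

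The cells were Lin-Sca-1+c-Kit+ cells, a gate enriched for haematopoietic stem and progenitor cells, from C57BL/6 mice aged 8 to 10 weeks, with blood given as the tissue. They were infected with a MigR1 retrovirus carrying 3xFLAG-HLF and cultured for 5 days with SCF (50 ng/ml), with IL-3 (5 ng/ml), and with IL-7 and Flt3L, both at 10 ng/ml. The immunoprecipitated protein was therefore the introduced, tagged HLF and not the cells' own. The group that received empty MigR1, under the same strain, age, gate, culture and antibody, was not analysed here. There was 1 library (n = 1) with a list of positions and no read counts, so depth is unknown and no error between replicates could be given. Intervals below are for counting error over peaks or genes only, and they treat peaks as independent. A list of positions holds no expression level, so the labelled cell type was not checked against its markers.

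HLF (hepatic leukemia factor) belongs to the PAR bZIP family of transcription factors, whose members bind as dimers to near-palindromic sites built from TTAC half-sites. It is known for its expression in blood stem cells and for its fusion to TCF3 in a form of acute lymphoblastic leukaemia. The bodies of long genes are mostly intron. Introns can hold enhancers, which act on a promoter from a distance, and alternative promoters, from which shorter transcripts of the same gene start.

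Some deep peaks lay on such internal starts. Of the 671 deep peaks on chromosomes with annotated starts in the table used, 14 were centred within 200 bp of a start, or 2.09% (1.15 to 3.48%). Sequence that close to a start made up 0.149% of the deep gene body, so the share of peaks was 14.0 times the share of sequence. Within 1 kb it was 20 peaks, 4.14 times the share of sequence, and within 5 kb 59 peaks, 2.55 times. Among the 14 closest, 8 lay at a further start of the host gene itself and 6 at the start of another gene. A deep start was overlapped about as often as any other: a peak of this list touched the window from 250 bases before to 50 bases after the start for 16 of 2135 deep starts, or 0.749% (0.429 to 1.21%), and for 209 of 29261 starts elsewhere, or 0.714% (0.621 to 0.818%).

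These 16 windows, which belong to 15 peaks, are the only sequence at deep peaks that could be read, since no genome of the build was used. Each window shared from 37 to 300 bases with its peak, so parts of some windows lie outside the peak. Of the 16 windows, 8 were starts of the host gene and 8 were starts of long noncoding RNAs (lncRNAs). The host starts belonged to Lims1, encoding the focal adhesion adaptor PINCH1, Cytip, encoding a cytohesin-binding protein of leukocytes, Vrk1, a nuclear kinase gene, and Retreg1, encoding a receptor for autophagy of the endoplasmic reticulum. The others were Mctp1, a gene of a membrane protein with C2 domains, Osbp2, an oxysterol-binding protein gene, Sertad2, a transcriptional regulator gene, and St7. Of the windows, 7 are shown, from RefSeq on GRCm38.p6: the 4 that hold a bZIP word, and St7, Cytip and Lims1 as host starts without one. Each runs 5′ to 3′ on the strand of its gene, and capitals mark the word.

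Mctp1: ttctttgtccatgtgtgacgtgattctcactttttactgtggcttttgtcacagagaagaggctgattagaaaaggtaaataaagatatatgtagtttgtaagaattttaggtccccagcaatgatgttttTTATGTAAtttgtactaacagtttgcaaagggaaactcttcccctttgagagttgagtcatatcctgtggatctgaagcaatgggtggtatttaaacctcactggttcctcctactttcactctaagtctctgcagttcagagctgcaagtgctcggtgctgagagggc

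Retreg1: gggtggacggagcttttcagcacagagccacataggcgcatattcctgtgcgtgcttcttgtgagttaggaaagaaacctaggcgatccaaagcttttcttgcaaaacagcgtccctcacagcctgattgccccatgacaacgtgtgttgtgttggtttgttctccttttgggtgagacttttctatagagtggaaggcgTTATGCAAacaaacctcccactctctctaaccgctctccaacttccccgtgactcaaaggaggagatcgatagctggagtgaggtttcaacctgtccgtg

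Gm33325: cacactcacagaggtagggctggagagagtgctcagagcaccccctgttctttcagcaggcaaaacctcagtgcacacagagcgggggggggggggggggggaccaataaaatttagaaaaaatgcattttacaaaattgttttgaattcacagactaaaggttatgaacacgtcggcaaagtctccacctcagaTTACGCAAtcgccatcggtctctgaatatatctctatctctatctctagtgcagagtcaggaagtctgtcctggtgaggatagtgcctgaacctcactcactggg

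Gm36034: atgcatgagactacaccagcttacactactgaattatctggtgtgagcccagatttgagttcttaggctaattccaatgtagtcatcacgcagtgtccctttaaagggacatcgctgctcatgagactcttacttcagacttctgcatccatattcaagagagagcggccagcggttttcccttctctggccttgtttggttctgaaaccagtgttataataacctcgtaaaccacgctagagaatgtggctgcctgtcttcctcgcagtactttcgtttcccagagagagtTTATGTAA

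St7: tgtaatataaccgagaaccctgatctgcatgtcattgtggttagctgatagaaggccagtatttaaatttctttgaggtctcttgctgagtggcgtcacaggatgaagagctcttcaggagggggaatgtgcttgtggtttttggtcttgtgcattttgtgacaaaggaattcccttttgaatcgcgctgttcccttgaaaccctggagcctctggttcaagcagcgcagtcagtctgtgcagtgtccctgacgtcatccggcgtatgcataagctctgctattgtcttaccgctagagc

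Cytip: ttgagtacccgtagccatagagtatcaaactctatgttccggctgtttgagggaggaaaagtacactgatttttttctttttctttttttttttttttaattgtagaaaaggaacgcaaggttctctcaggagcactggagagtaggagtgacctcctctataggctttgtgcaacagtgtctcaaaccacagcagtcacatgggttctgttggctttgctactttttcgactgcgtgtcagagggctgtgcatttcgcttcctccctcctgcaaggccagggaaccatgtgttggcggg

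Lims1: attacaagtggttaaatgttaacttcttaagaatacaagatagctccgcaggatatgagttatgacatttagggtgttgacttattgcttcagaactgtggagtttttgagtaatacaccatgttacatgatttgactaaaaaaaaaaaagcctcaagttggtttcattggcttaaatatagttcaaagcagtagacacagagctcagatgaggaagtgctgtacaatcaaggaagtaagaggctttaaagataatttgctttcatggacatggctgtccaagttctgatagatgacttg

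The Mctp1 window is chr13:76579347-76579646 on the plus strand. The peak there lay 197 kb from the nearest gene end, the farthest of the 15, and the word TTATGTAA lay 6 bp from the peak centre. The Retreg1 window is chr15:25940452-25940751 on the plus strand, with TTATGCAA 13 bp from the centre of a peak that lay 33.1 kb from a gene end. Gm33325 starts inside Pced1b at chr15:97343161-97343460 on the minus strand, and its TTACGCAA lay 127 bp from the peak centre. Gm36034 starts inside Stac at chr9:111596100-111596399 on the plus strand, with TTATGTAA 110 bp from the peak centre. The St7 window, chr6:17748920-17749219 on the plus strand, had its peak centred 32 bp after the start. The peak at Cytip (chr2:58160073-58160372, minus strand) was centred 77 bp before the start, and that at Lims1 (chr10:58351713-58352012, plus strand) 129 bp before it.

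The 4 words of the plan were TTACGTAA, TTACATAA, TTACGCAA and TTGCGCAA, searched on both strands. At least 1 of them was in 3 of the 16 windows at deep peaks, or 18.8% (4.05 to 45.6%), and in 26 of 209 windows at other peaks, or 12.4% (8.29 to 17.7%). Over the 31396 autosomal windows, peaks or not, the share was 1.40% (1.27 to 1.53%). TTACATAA, read as TTATGTAA on the other strand, was in 2 deep windows, in 5.74% of the windows at other peaks and in 0.956% of all windows. TTACGCAA was in 1 deep window, in 4.31% of those at other peaks and in 0.169% of all. The full palindrome TTACGTAA was in none of the 16, nor of the 209 at other peaks, and in 0.108% of all windows. TTGCGCAA was in none of the 16, in 2.87% of the windows at other peaks and in 0.178% of all windows. The Retreg1 word, TTGCATAA on the other strand, was added after the windows had been read. It was in 6.70% of the windows at other peaks and in 0.755% of all windows. Matches overlap no other match in these windows, and they describe letters, not occupied sites.

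A gene must be longer than 40 kb to hold a deep peak. There were 5730 such genes on the autosomes, and 573, or 10.0% (9.24 to 10.8%), held at least 1. Other genes overlap or adjoin some of them, and 5594 had any sequence more than 20 kb from every end, of which 10.2% were hosts. Of these host genes, 470 had 1 deep peak, 81 had 2, 18 had 3 and 4 had 4. Only 3 peaks lay in 2 protein-coding genes at once, namely Iqschfp with Schip1, Ipcef1 with Oprm1, and Angpt2 with Mcph1. Hosts had a median length of 164 kb, against 78.2 kb for genes over 40 kb without a deep peak. The shortest host was Hsd11b1, which encodes the enzyme that regenerates active glucocorticoid, at 42.4 kb, and the longest Cntnap2, a neuronal adhesion gene, at 2241 kb.

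The share of genes with a deep peak rose with length and then stopped rising. It was 2.71% of genes of 40 to 80 kb, 11.5% at 80 to 160 kb, 24.0% at 160 to 320 kb, 24.8% at 320 to 640 kb and 17.8% (11.7 to 25.3%) over 640 kb. Per Mb of deep gene body, the stretch more than 20 kb from every protein-coding gene end, the order turned. Density was 1.93 peaks per Mb (exact Poisson 95% interval 1.53 to 2.39) at 40 to 80 kb, 2.07 (1.82 to 2.35) at 80 to 160 kb and 1.78 (1.57 to 2.02) at 160 to 320 kb. It was 0.814 (0.670 to 0.980) at 320 to 640 kb and 0.226 (0.151 to 0.324) over 640 kb. The 135 genes over 640 kb held 128 Mb of deep body and 29 peaks, while the 783 genes of 160 to 320 kb held 135 Mb and 240.

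**Figure D1:**
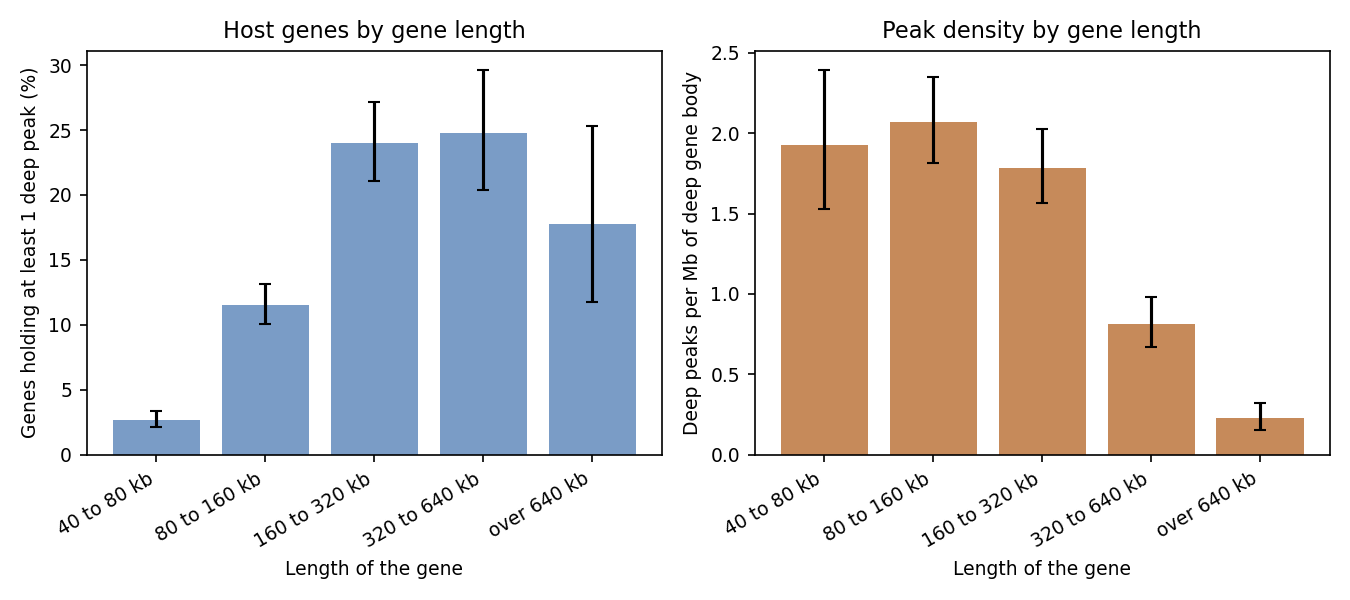
Share of protein-coding genes holding at least 1 deep peak (left, percent) and deep peaks per Mb of deep gene body (right), by gene length. Bars are the values of the 1 library and error bars 95% intervals for counting error (exact binomial left, exact Poisson right); the share levels off near 24% while density falls to 0.226 per Mb in genes over 640 kb.

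The 10 longest genes without a deep peak were Ptprd, Lsamp, Lrp1b, Csmd1, Nrxn3, Fhit, Ctnna3, Robo2, Pcdh15 and Rbfox1, from 2271 down to 1528 kb. Ptprd, a receptor phosphatase gene, offered 2231 kb of deep body and Lrp1b, a lipoprotein receptor gene, 2018 kb. The 10 longest hosts were Cntnap2, Macrod2, Dlg2, Magi2, Pde4d, Auts2, Sox5, Immp2l, Hdac9 and Ctnnd2. Of these, 8 had 1 deep peak each, while Sox5, an SRY-related transcription factor gene, and Hdac9, a class II histone deacetylase gene, had 2 each.

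Deep peaks reached far into genes. Their distance from the nearest protein-coding gene end had a median of 48.7 kb and quartiles of 31.0 and 76.0 kb. Over 50 kb lay 337 peaks (48.2%), over 100 kb 113 (16.2%) and over 200 kb 22 (3.15%). The rule set the lower limit. The peaks just inside it were in Syne3, Notch1, Kat2b, LOC108168726 and Sh3bp5, at 20.006 to 20.434 kb, and those just outside in Nedd9, Slc2a3, Prr5l, Tnip3 and Washc2, at 19.977 down to 19.851 kb.

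The 10 peaks farthest from a gene end lay in 9 genes. The farthest was in Dlg2, a synaptic scaffold gene, at 750 kb, followed by Magi2, another scaffold gene, at 623 kb. Pde4d, which encodes a cAMP phosphodiesterase, had its peak at 505 kb, Sox5 at 441 kb and Ctnnd2, a catenin gene, at 421 kb. Inpp4b, which encodes a phosphoinositide phosphatase, had peaks at 360 and 291 kb. Rora, which encodes a nuclear receptor of the circadian clock, had one at 354 kb. Arhgap24, a gene of a GTPase-activating protein, had one at 295 kb and Fat3, a protocadherin gene, one at 286 kb.

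Density fell with depth over all genes, from 1.73 peaks per Mb (1.47 to 2.01) at 20 to 30 kb from an end to 0.827 (0.666 to 1.01) at 100 to 200 kb and 0.268 (0.156 to 0.429) at 200 to 400 kb. Within genes of like length the fall was smaller or not seen. In genes of 80 to 160 kb, density was 1.70 (1.29 to 2.20) at 20 to 30 kb and 2.40 (1.81 to 3.12) at 50 to 100 kb. In genes of 160 to 320 kb it was 2.09 (1.44 to 2.91) at 20 to 30 kb, 1.94 (1.62 to 2.30) at 50 to 100 kb and 1.42 (0.95 to 2.04) at 100 to 200 kb. In genes of 320 to 640 kb it was 0.653 (0.212 to 1.52) at 20 to 30 kb on 5 peaks and 0.854 (0.639 to 1.12) at 100 to 200 kb on 53. Genes over 640 kb were low at each depth, from 0.148 to 0.335 per Mb, with 1 to 9 peaks a step.

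**Figure D2:**
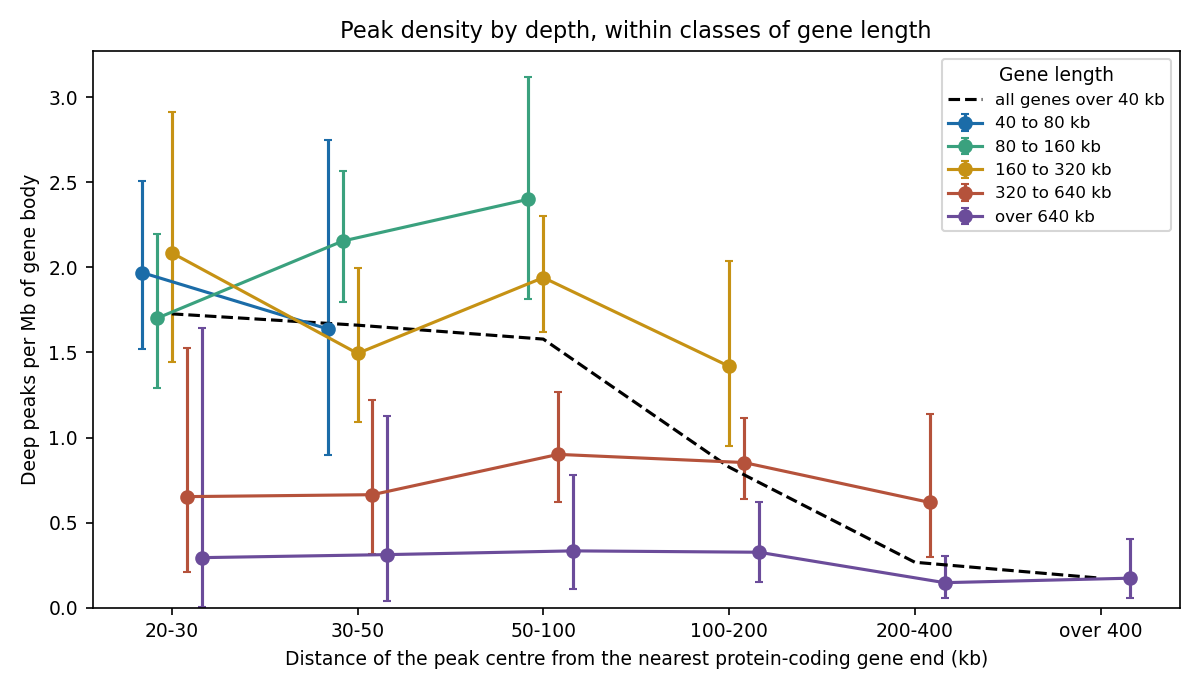
Deep peaks per Mb of gene body (vertical axis) by distance from the nearest protein-coding gene end in kb (horizontal axis, unequal steps), with 1 line for each class of gene length. Points are the values of the 1 library with exact Poisson 95% intervals; the dashed line for all genes over 40 kb falls from 1.73 to 0.174, while the lines within a length class stay closer to level.

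Along the host, deep peaks lay in every stretch, with the highest share toward the 5′ end. For 545 peaks the strand of the host was in the RefSeq promoter table, and the deep part of each host was divided into 5 equal lengths, where even placement gives 20% each. The length nearest the 5′ end held 129 peaks, or 23.7% (20.2 to 27.5%). The next held 19.8% (16.5 to 23.4%), 21.5% (18.1 to 25.2%) and 17.4% (14.3 to 20.9%), and the length nearest the 3′ end 17.6% (14.5 to 21.1%). Nearer the 5′ than the 3′ end of the host were 310 of 545, or 56.9% (52.6 to 61.1%). The median distance from the 5′ end was 67.8 kb.

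**Figure D3:**
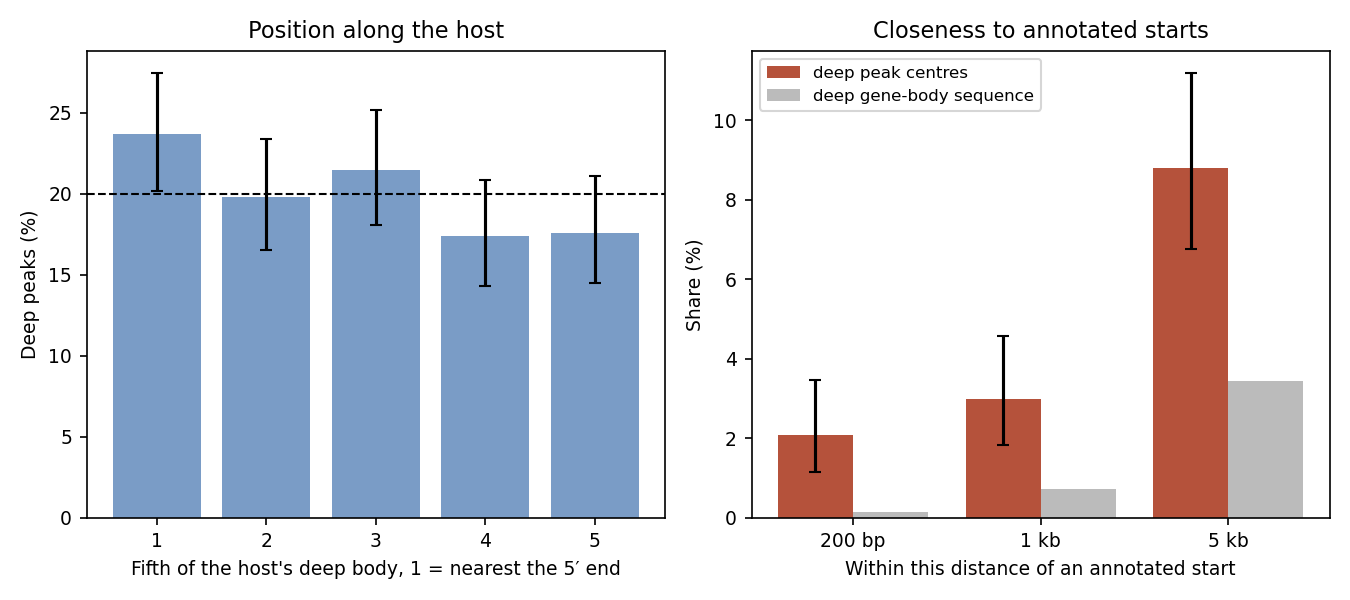
Left, share of deep peaks (percent, n = 545) in each of 5 equal lengths of the host's deep body from the 5′ end, with the even share of 20% dashed. Right, share of deep peak centres (n = 671) and of deep gene-body sequence within 200 bp, 1 kb and 5 kb of an annotated start; error bars are exact binomial 95% intervals, and the peaks exceed the sequence at each distance (2.09% against 0.149% at 200 bp).

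There were 22 genes with 3 or 4 deep peaks, 17 of them longer than 160 kb. The 4 genes with 4 peaks were Cacnb2, Arid1b, Sgms1 and Gab2. Cacnb2 (chromosome 2, 14603861 to 14988811) encodes a beta subunit of voltage-gated calcium channels, and its peaks lay 116, 170, 205 and 220 kb from its 5′ end. The last of these lay 597 bp from a further annotated start of Cacnb2. Arid1b (chromosome 17, 4994297 to 5347656) encodes a subunit of the BAF chromatin remodelling complex and had peaks at 87.1, 193, 213 and 245 kb. Sgms1 (chromosome 19, 32122727 to 32389885) encodes a sphingomyelin synthase and had peaks at 61.5, 135, 166 and 175 kb. Gab2 (chromosome 7, 97081751 to 97308951) encodes a docking protein downstream of cytokine receptors. Its 4 peaks formed 2 pairs, with 5.11 kb and 1.11 kb between the members of a pair, all between 92.7 and 98.8 kb from the nearer end.

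The 18 genes with 3 deep peaks have varied functions. Etv6 (chromosome 6, 134035700 to 134270158) encodes an ETS repressor needed by blood stem cells, and its peaks lay 37.4, 80.1 and 136 kb from the 5′ end. Runx2 (chromosome 17, 44495987 to 44814797), the RUNX gene best known from bone, had peaks at 105, 162 and 201 kb. Vav3 (chromosome 3, 109340465 to 109685694) encodes a guanine nucleotide exchange factor of receptor signalling and had a pair at 20.6 and 21.6 kb and a further peak at 111 kb. Lcp1 (chromosome 14, 75131105 to 75230842) encodes L-plastin, the actin-bundling protein of leukocytes, with peaks at 47.9, 49.8 and 64.7 kb. Dock4 (chromosome 12, 40445957 to 40846874), a Rac and Rap exchange factor gene, had peaks at 76.7, 113 and 181 kb. Akap13, which encodes an anchoring protein of protein kinase A, had peaks at 141, 201 and 245 kb.

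The other genes with 3 peaks were Rere, Megf11, Specc1, St7, Asph, 1700025G04Rik, Trak1, Mcu, Lyrm4, Mbp, M1ap and Rnf24. Mcu (chromosome 10, 59446984 to 59617409) encodes the pore of the mitochondrial calcium uniporter and had peaks at 27.7, 39.4 and 52.7 kb. Trak1, which encodes a kinesin adaptor of mitochondria, had peaks at 51.8, 55.1 and 63.4 kb. Lyrm4, a gene of iron-sulphur cluster assembly, had them at 29.0, 42.6 and 97.9 kb. Rnf24 (chromosome 2, 131298488 to 131352892), a RING finger gene, was the shortest of the 22 at 54.4 kb and held 3 peaks in 13.7 kb of deep body. Its peaks were 3.14 and 4.85 kb apart. M1ap, at 83.4 kb with 43.4 kb of deep body, held 3 deep peaks and 2 more nearer an end. Mbp, the myelin basic protein gene, which also gives rise to longer transcripts made in blood cells, had 3 peaks within 48.5 to 51.0 kb of the nearer end.

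**Figure D4:**
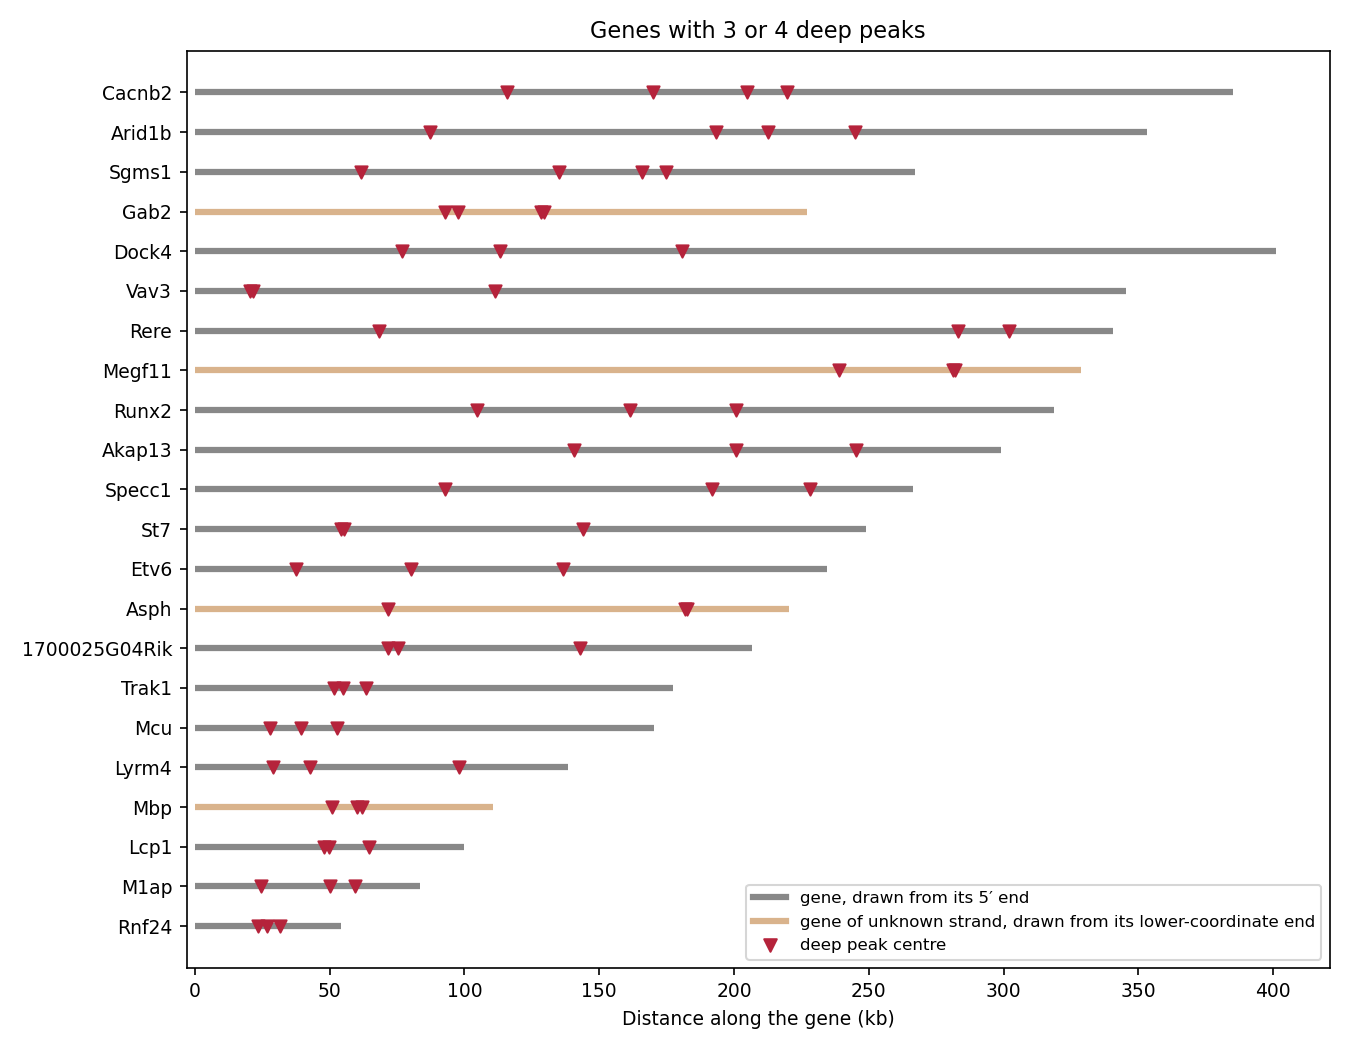
The 22 genes with 3 or 4 deep peaks, each drawn to scale in kb from its 5′ end, or from its lower-coordinate end for Gab2, Megf11, Asph and Mbp, whose strand was not in the table. Triangles are deep peak centres; close pairs are seen in Gab2, Vav3, Megf11, St7, Asph, Mbp and Lcp1, while the peaks of Dock4, Runx2 and Etv6 are spread out.

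Some peaks in the same host were close together. Hosts with 2 or more deep peaks gave 129 neighbouring pairs, with a median spacing of 31.5 kb and a range of 0.672 to 402 kb. Of these pairs, 12 were within 2 kb, 22 within 5 kb and 36 within 10 kb. The closest were in Uck2, a uridine-cytidine kinase gene, at 672 bp, then Megf11 at 1.01 kb, Asph at 1.02 kb, Vav3 at 1.04 kb and Arid2, a chromatin remodeller gene, at 1.09 kb. The list has no read counts, so it was not tested whether such pairs are parts of 1 broad enriched region.

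The share of deep peaks with a near neighbour was like that of the other peaks. Another peak centre lay within 25 kb of 144 of 699 deep peaks, or 20.6% (17.7 to 23.8%). The share was 22.8% (19.99 to 25.7%) of the 857 peaks in gene bodies 1 to 20 kb from an end, 18.6% (14.6 to 23.1%) of the 339 within 1 kb of an end and 20.3% (17.1 to 23.7%) of the 592 outside genes over 20 kb away. Deep gene body, 23.1% of the autosomal span, held 22.3% of autosomal peaks at 1.26 per Mb (1.17 to 1.35). Density was 2.22 per Mb (2.07 to 2.37) in gene bodies 1 to 20 kb from an end and 0.563 (0.519 to 0.610) outside genes over 20 kb away. Outside genes 1 to 20 kb from an end, density was 1.92 (1.77 to 2.07), and within 1 kb of an end 4.56 (4.08 to 5.07). Deep body was thus denser only than sequence outside genes over 20 kb away, and its interval overlapped none of the others. No test of these differences was made.

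Hosts more often than other long genes held a body peak near a protein-coding gene end, their own or that of another gene. This difference was not tested. Among the 573 hosts, 79, or 13.8% (11.1 to 16.9%), also had a peak in the body within 20 kb of a protein-coding gene end, against 383 of the 5157 other genes over 40 kb, or 7.43% (6.73 to 8.18%). The share was higher in hosts in each length class, from 21.6% against 8.69% at 40 to 80 kb to 14.9% against 6.22% at 160 to 320 kb and 8.33% against 0.901% over 640 kb. For a peak within 1 kb of either end of the gene the shares over all lengths were closer, 11 of 573 hosts, or 1.92% (0.962 to 3.41%), and 86 of 5157 others, or 1.67% (1.34 to 2.06%). By length they were 4.05% of hosts against 1.88% of others at 40 to 80 kb and 4.02% against 1.57% at 80 to 160 kb. No longer host had such a peak, against 0.840% of others at 160 to 320 kb, 2.62% at 320 to 640 kb and 0% over 640 kb. Where strand was known, 9 of 447 hosts (2.01%) had a peak at the 5′ end, against 60 of 4047 others (1.48%). At the 3′ end it was 0 of 447 hosts, with an upper bound of 0.822%, against 12 of 4047 others (0.297%).

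Of 9 gene lists, those of small GTPase regulators with the cytoskeleton, of haematopoietic transcription factors, and of signalling kinases, phosphatases and adaptors had the largest shares of hosts with over 10 genes listed. Counts are read against the 10.0% of all genes over 40 kb and against the share that all genes of the same length classes give. The lists were chosen with earlier results of these data known, and no list was tested.

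Small GTPase exchange factors, GTPase activators and cytoskeletal genes had 14 hosts among 34 members over 40 kb, or 41.2% (24.6 to 59.3%), where genes of these lengths gave 15.9%. With the limit at 50 kb its share was 26.1%, against 12.2% of all genes long enough for that limit. No share by length was computed at 50 kb. Dock2, which encodes the Rac exchange factor of leukocyte migration, had a peak 43.9 kb from its 5′ end. Its partner gene Elmo1 had one at 216 kb, Dock8 one at 95.9 kb and Dock1 one at 25.7 kb. Iqgap1, a scaffold gene of the cytoskeleton, had one at 33.1 kb. The other hosts were Dock4, Lcp1, Iqgap2, Arhgef3, Tiam1, Diaph1, Arhgap26, Rapgef1 and Fmnl2. Members without a deep peak numbered 20, among them Dock10, Dock5, Arhgap15, Prex1 and Myh9. Per Mb of their deep body the list had 3.08 peaks (1.82 to 4.86), against 1.26 in all genes over 40 kb.

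Haematopoietic transcription factors had 12 hosts of 34, or 35.3% (19.7 to 53.5%), against 17.6% by length, and 2.67 peaks per Mb (1.56 to 4.28). Besides Etv6 and Runx2 with 3 peaks each, Rora had 2, at 381 and 714 kb from its 5′ end. Runx1, a master regulator of blood stem cell formation, had a deep peak 110 kb from its 5′ end, and the ETS gene Erg one at 171 kb. Foxp1, a forkhead gene of B cell development, had one 494 kb from the 5′ end and 740 bp from a further annotated start. The forkhead genes Foxo1 and Foxo3 had peaks at 37.5 and 31.3 kb. Mef2c had one at 105 kb, Tcf12, an E-protein gene, one at 237 kb and Nfix one at 75.2 kb. The Zbtb16 peak lay 21.5 kb from the nearer gene end. The 22 without a deep peak included Ikzf1, Meis1, Mecom, Ebf1, Pax5, Bach2, Fli1, Ets1 and Hlf itself.

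Signalling kinases, phosphatases and adaptors had 11 hosts of 40, or 27.5% (14.6 to 43.9%), against 12.2% by length, and 3.52 peaks per Mb (2.09 to 5.56). Gab2 and Vav3 led with 4 and 3. Ptprj, a receptor phosphatase gene, had 2, at 37.8 and 91.5 kb from its 5′ end, and Inpp4b had 2. Ptprc, which encodes the phosphatase CD45 found on nearly every blood cell, had 1 at 45.5 kb. Syk, a kinase gene of immune receptor signalling, had 1 at 41.7 kb, and Bcr 1 at 59.0 kb. Map3k5, Prkca, Cblb and Pik3ap1 had 1 each. Lyn, Fyn, Vav1, Prkcb, Plcg2 and Inpp5d were among the 29 without one.

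Cytokine receptor and JAK-STAT genes had 0 hosts of 14 members over 40 kb, which allows a share of up to 23.2% by the exact interval. Genes of these lengths gave 5.86%, or 0.82 of a gene among 14, so the 0 is near the background. Peaks nearer an end lay in Flt3, with 2, and in Jak2 and Stat3, with 1 each. With the limit at 10 kb 8% of the list were hosts, against 8.53% of all genes long enough for that limit. The 14 members without a deep peak included Kit, Flt3, Il2ra, Il6ra, Il6st, Lifr, Jak1, Jak2, Stat3 and Stat5b. The 14 offered 0.453 Mb of deep body in all. Leukocyte surface receptors and adhesion genes had 2 hosts of 21, or 9.52% (1.17 to 30.4%), against 8.34% by length and with 1.73 peaks per Mb (0.210 to 6.27), namely the integrin genes Itga4 and Itgb5.

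The intervals of the remaining lists held their share by length. Chromatin regulators had 7 hosts of 38, or 18.4% (7.74 to 34.3%), against 12.7%, and 3.36 peaks per Mb (1.79 to 5.74). All genes over 40 kb had 1.26 per Mb. The median length of the list was 104 kb, and all genes of 80 to 160 kb had 2.07 per Mb, inside the interval of the list. The chromatin regulator hosts were Arid1b with 4 peaks, Arid2, Chd9 and Hdac9 with 2, and Chd7, Kmt2c and Hdac7 with 1. Leukaemia rearrangement partners had 7 of 34, or 20.6% (8.70 to 37.9%), against 13.1%, with 2.01 peaks per Mb (0.964 to 3.70), and Etv6, Runx1, Zbtb16, Bcr and Elmo1 among them were also on lists above. Aff1 had 2 peaks, 1 of them 904 bp from a further annotated start, and Mllt3 had 1 at 129 kb. PAR bZIP, clock and NFIL3 genes had 2 hosts of 8, Rora and Per2, or 25% (3.19 to 65.1%), against 9.46%, with 2.97 peaks per Mb (0.613 to 8.68). Rora was also on the haematopoietic list. Per2 had only 3.37 kb of deep body, and among genes with at least 10 kb of it the share was 16.7%. Long neuronal genes, a control, had 8 of 40, or 20% (9.05 to 35.6%), against 18.1%, with 0.167 peaks per Mb (0.0720 to 0.328) over 48.0 Mb of deep body.

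**Figure D5:**
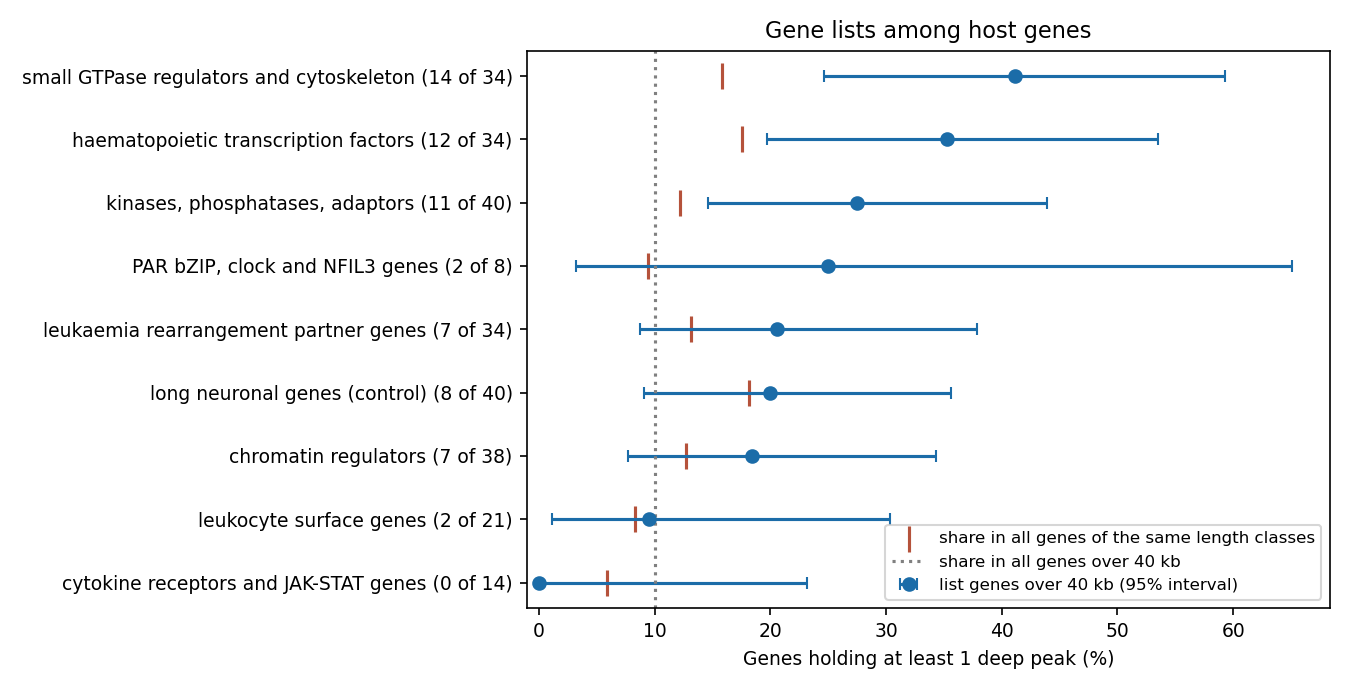
Share of list genes over 40 kb holding at least 1 deep peak (horizontal axis, percent), with exact binomial 95% intervals for the 1 library. The upright mark is the share in all genes of the same length classes and the dotted line the 10.0% of all genes over 40 kb; the small GTPase regulator, haematopoietic transcription factor and signalling lists lie above both with their intervals, and the cytokine receptor list is at 0 of 14.

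Long noncoding RNA genes lay over some deep peaks. The centre of 55 deep peaks, or 7.87% (5.98 to 10.1%), was inside a gene that is not protein-coding, 54 in lncRNAs and 1 in a pseudogene. Such genes covered 4.81% of deep gene body.

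Deep peaks were found on all 19 autosomes. Per Mb of deep gene body, chromosome 11 was highest at 1.88 (1.39 to 2.48; 49 peaks) and chromosome 19 next at 1.83 (1.20 to 2.69; 26 peaks). Chromosome 1 was lowest at 0.846 (0.604 to 1.15; 40 peaks), below chromosome 5 at 0.883 (0.604 to 1.25; 32 peaks). The other 15 lay between 0.967 and 1.52 per Mb, and neighbours in this order had overlapping intervals. These densities were not matched for gene length. By the share of genes over 40 kb that were hosts, the order differed. Chromosome 15 was then highest at 12.7% and chromosome 5 lowest at 7.07%, with chromosome 11 at 12.0% and chromosome 1 at 7.24%. Chromosome 11 hosts included Dock2, Prkca and Rbfox3, and chromosome 1 hosts included Ptprc and Per2.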

How the data were processed

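Anti-FLAG ChIP-seq of the FLAG-HLF library was deposited by the authors as 1 list of interval positions (chromosome, start and end), with no score or count. The submitters' processing notes list Bowtie2 2.0.6, MACS2 2.0.10 and mm10, without saying which did what. Settings for calling peaks, whether the empty-vector library was the background, and how all intervals came to be equally wide were not given in the sources used. A peak centre was its start plus 200 bases. Genes came from the RefSeq table of GRCm38.p6, which shares mm10's chromosome coordinates, without rows starting below 3 Mb (20560 protein-coding autosomal genes). It gives no exons, so exons, introns and UTRs were not assigned. Strand and further starts came from the RefSeq promoter windows of the same build, which cover 16457 of these genes and none on chromosome 18. They are not a full set of starts.

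Deep gene body was counted by length after removing 20 kb on each side of every protein-coding gene end. Assembly gaps and sequence where reads cannot be placed were not removed. Shares carry exact Clopper-Pearson and densities exact Poisson 95% intervals (Python 3.11.15, SciPy 1.17.1). The share by length gives each list gene the share of its length class. Classification was tested on simulated data. With 1 library, no comparison was tested. The motif comparison over whole peaks was not run, and words were searched in promoter windows instead. The members and lists were chosen with earlier results of these data known. Of 334 distinct list symbols, 327 matched autosomal protein-coding genes. Named genes were all hosts of 3 or more deep peaks, the hosts of the 10 farthest peaks, the 10 longest genes with and without one, list members with one, and the 5 peaks on each side of 20 kb. Others, such as genes at internal starts, close pairs, double hosts and list members without a peak, were chosen after their values were seen. Some list members are not reported by name here.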

Additional observations from a re-analysis of the deposited data

How the results depend on the processing

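Of 87 alternative values, 67 stayed within the 95% interval of the value reported, or within 1.5 times a count, and 20 did not. Moving the distance limit changes the members by construction. At over 10 kb from an end there were 997 peaks, 31.9% of autosomal peaks, with a median distance of 33.2 kb, in 8.53% of genes long enough. At over 50 kb there were 337 peaks, 10.8% of autosomal peaks, with a median of 78.3 kb, in 281 genes or 12.2% of those long enough. With a neighbour within 25 kb were then 13.9%, and 0 leukocyte surface genes were hosts. When the ends of every annotated gene counted, noncoding ones included, 463 peaks were left, 14.8% of autosomal peaks, with a median of 37.8 kb, in 6.93% of genes. Merging peaks within 5 kb left 674 peaks and 14.8% with a neighbour. Neighbours within 10 kb and 50 kb gave 10.9% and 31.6%. Asking for 10 kb of deep body gave 12.2% of genes. Of 45 alternatives for lists, 1 lay outside the interval, the surface genes above. Shares that moved by over 1.5 times within wide intervals were, at over 50 kb, 26.1% of small GTPase regulators and 31.6% of leukaemia partners. At over 10 kb they were 14.3% of PAR bZIP and clock genes, 18.2% of surface genes and 8% of cytokine receptor and JAK-STAT genes. With the ends of every gene they were 12.5% of PAR bZIP and clock genes and 10% of long neuronal genes. The excess at starts fell from 14.0 to 4.14 and 2.55 times with wider windows, which were chosen after seeing the data, as was the fifth word. With that word, 4 of 16 windows at deep peaks held at least 1 of the 5 words, or 25%, against 2.12% of all autosomal windows. The fifth word was added after the windows had been read, so this share is a description only. No paired analysis was possible because a single library was analysed; leaving out a replicate was likewise impossible. Alternatives for motifs over whole peaks were not run. Depth is unknown, so a gene without a peak may have one below the authors' threshold.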
